A study of Mus musculus with 6 samples.

Results

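The genes followed here are 10 oncofetal markers of hepatocellular carcinoma: Afp, Gpc3, H19, Igf2, Dlk1, Mdk, Golm1, Igf2bp3, Lin28b and Epcam. They were taken by gene symbol from a table of 55536 mouse genes, in which each of the 10 symbols had 1 gene identifier. The RNA came from liver tumours in male C3H mice that had received 1000000 cells of the mouse hepatocellular carcinoma line HCA-1 under the liver capsule at 6 to 8 weeks of age. The Control group was 3 tumour samples (replicates 3, 4 and 5) from mice labelled Untreated. The TSDP group was 3 tumour samples (replicates 1, 2 and 5) from mice given a nanoparticle by vein between day 10 and day 23. The nanoparticle carried sorafenib, a kinase inhibitor used in liver cancer, and the nitric oxide donor DNIC. All tumours were taken on day 24, and the comparison asks how the transcriptome differed with the treatment. Whether the Control mice were given an empty carrier is not in the labels, every tumour comes from 1 cell line, and a whole tumour also holds cells of the host.

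Oncofetal genes are expressed in fetal liver, are shut down in hepatocytes around and after birth, and are expressed again in some liver cancers. Several are used in the clinic: alpha-fetoprotein (AFP) is a serum marker, glypican 3 (GPC3) is a tissue marker, and Golgi membrane protein 1 (GOLM1) and midkine (MDK) are serum candidates. H19, IGF2 and DLK1 are imprinted, which means that normally 1 parental copy is active, and LIN28B and the IGF2 mRNA-binding protein IGF2BP3 act on RNA in fetal and cancer cells. EPCAM, a surface adhesion protein, marks liver progenitor cells and bile duct cells.

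In these tumours the markers were a mixed set rather than a uniformly high one. Golm1 was the most abundant, Afp, Gpc3, Epcam, Mdk, H19 and Igf2bp3 were low, and Igf2, Dlk1 and Lin28b were at or near 0 reads in every library. The call rule was a Benjamini-Hochberg adjusted p under 0.05 in edgeR's quasi-likelihood test over 17423 genes. None of the 7 members that passed the filter on low counts was called, and 0 of all 17423 genes (0%) were. At an unadjusted p under 0.05 the test had 2326 genes (13.4%), with 1499 higher (8.6%) and 827 lower (4.75%) in TSDP. Afp was the 1 member of 7 among them, on the higher side. DESeq2, run as a second tool, called 626 of 17720 genes (3.53%) and none of the members, and limma-voom called 0 genes.

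Libraries held 32130808 to 38953397 counts. The RNA of hepatocyte markers differed widely between them. The summed level of 22 hepatocyte markers was 455 to 30038 CPM (counts per 1000000, on library sizes scaled by the trimmed mean of M values) in Control and 25059 to 76620 CPM in TSDP, the lowest being Control 3. All 22 had a positive estimate, with a median log2 fold change of 2.31, 0 called by edgeR and 2 higher at an unadjusted p under 0.05. Albumin (Alb) was counted at 62.7 CPM in Control 3 and at 1993 to 32438 CPM in the other libraries. Markers of mature hepatocytes were thus near absent in Control 3, which carries the same HCC label as the other tumours, and no marker was at 0 in all libraries. In bulk tumours, fewer cells of a type and less RNA per cell cannot be told apart.

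The promoters of Afp and Gpc3 are shown because these diagnostic markers had the largest estimated differences and stand at opposite ends of base composition. Each run is the 250 bases before the RefSeq start on GRCm38.p6, 5′ to 3′ on the gene's strand, and Afp lies on the plus strand at chr5:90490464-90490713 and Gpc3 on the minus strand at chrX:52613975-52614224. Capitals mark TATAAA in Afp, and CTTATC, the reverse complement of GATAAG, in Gpc3.
Afp: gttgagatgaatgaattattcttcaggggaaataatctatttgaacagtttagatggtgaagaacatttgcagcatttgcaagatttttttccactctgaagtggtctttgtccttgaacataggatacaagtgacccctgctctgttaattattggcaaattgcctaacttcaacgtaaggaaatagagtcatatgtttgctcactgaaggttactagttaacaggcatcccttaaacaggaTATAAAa
Gpc3: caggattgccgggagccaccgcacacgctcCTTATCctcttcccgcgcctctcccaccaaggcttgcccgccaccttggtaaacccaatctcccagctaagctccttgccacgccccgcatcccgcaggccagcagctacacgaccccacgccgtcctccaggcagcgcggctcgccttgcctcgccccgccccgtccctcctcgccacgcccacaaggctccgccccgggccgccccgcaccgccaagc

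The Afp run had 36% G and C and 1 CpG dinucleotide, and the Gpc3 run had 71.6% and 25. Over 32851 RefSeq promoters the medians were 52.4% and 6. Golm1, the most abundant member, had 65.6% and 20 CpG, Epcam 56.4% and 8, and Dlk1 54.8% and 8. The TATAAA of Afp lay at bases -7 to -2 before the RefSeq start, and its last base 25 bases before the gene start in GENCODE M21. The search for 4 motifs, on both strands, also covered a short stretch after each start. TATAAA was in 13.6% of all promoters, GATAAG in 7.44%, the FOXA motif TGTTTAC in 3.65%, and the 13-letter HNF1 motif in 0.00913%. The 8 members with a promoter in the table had 11 promoters. Among them, TATAAA was in Afp and Golm1, GATAAG in Dlk1 and Gpc3, TGTTTAC at 2 places in Dlk1, and the HNF1 motif in none. All matches in members lay before the start. These are matches of letters, and no binding was measured.

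Ordered by reads per kb of exon (FPKM, the scaled CPM per kb of merged exon), Golm1 stood at a mean of 12.0 over the 6 libraries, higher than 76.1% of the tested genes. Epcam came next at 2.90, followed by Afp at 1.47, Mdk at 0.992, Gpc3 at 0.900 and H19 at 0.758. Golm1's lowest library, 8.79 FPKM, was above Epcam's highest, 6.15 FPKM. Neighbours from Epcam down to H19 overlapped in range, so their order does not exceed their spread. Igf2bp3 stood at 0.217 FPKM, higher than 8.72% of the tested genes and below H19 in all 6 libraries. Lin28b (0.0035 FPKM), Dlk1 (0.0034) and Igf2 (0.0017) closed the order and could not be ranked among themselves.

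**Figure D1:**
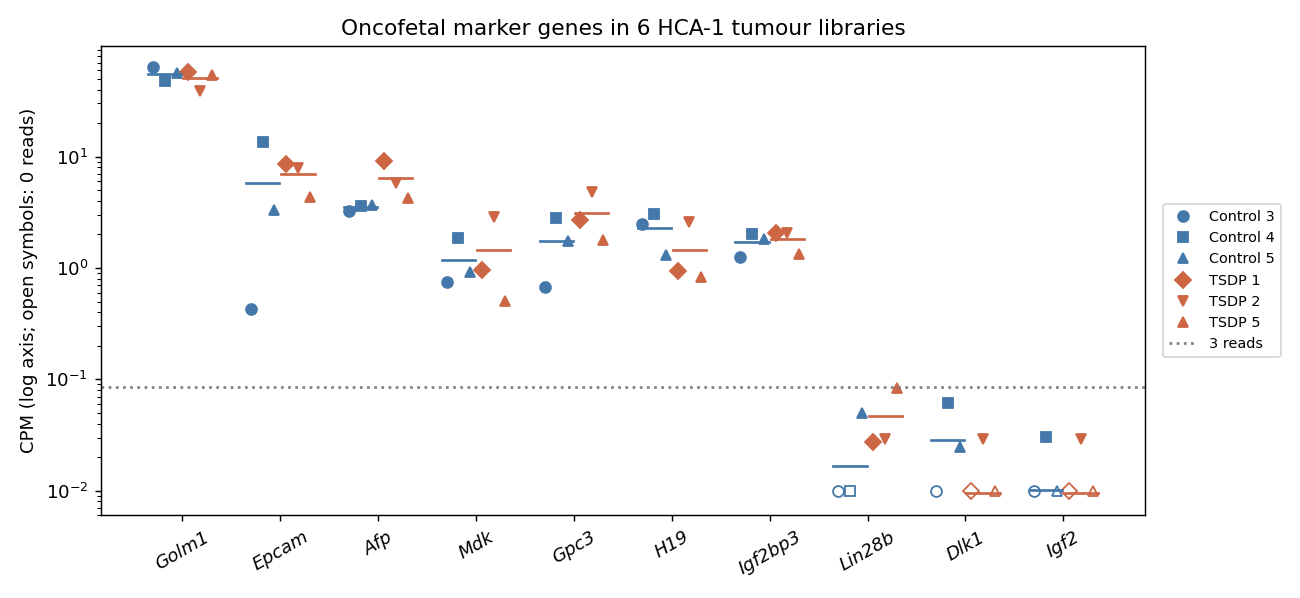
CPM of the 10 markers (log axis) in each Control (blue) and TSDP (red) library, with lines at the group means, open symbols for libraries with 0 reads and a dotted line at the level of 3 reads. Afp is the tested marker with all TSDP libraries above all Control libraries (lowest TSDP 4.24 CPM, highest Control 3.68 CPM), and Epcam has the widest range, 0.432 to 13.5 CPM.

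Afp encodes alpha-fetoprotein, the main plasma protein of the fetus and the relative of albumin that the liver stops making after birth. The gene lies on the plus strand at chr5:90490737-90508907 (GRCm38) and shares no exon bases with another gene. It was counted at 106, 118 and 148 reads in Control 3, 4 and 5, against 336, 199 and 152 reads in TSDP 1, 2 and 5. In CPM the Control tumours stood at 3.27, 3.62 and 3.68 and the TSDP tumours at 9.20, 5.75 and 4.24. All TSDP libraries were above all Control libraries, with TSDP 1 far above the rest and TSDP 5 only just above Control. The means were 3.52 ± 0.218 and 6.40 ± 2.54 CPM (SD, n = 3 each). The log2 fold change, TSDP over Control, was 0.86 (SE 0.31, 95% interval 0.11 to 1.61), or 1.81-fold, with an adjusted p of 0.353 in edgeR's quasi-likelihood test and 0.155 in DESeq2. Among all tested genes, 2273 (13%) had every TSDP library above every Control library, 1526 (8.76%) had every one below, and 3799 (21.8%) were apart in either direction, and of the 7 tested members Afp was the 1 that was apart.

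The Afp difference rested most on TSDP 1: without that library the log2 fold change was 0.50 (adjusted p = 0.67, edgeR). With the hepatocyte score (mean log2 CPM of the 22 hepatocyte markers) as a covariate it was 0.74 (adjusted p = 0.892, edgeR). That score did not overlap between the groups, at 1.85 to 8.88 in Control and 8.97 to 10.57 in TSDP. A relation with the score and a difference between the groups thus cannot be told apart, here and for the other genes. The permutations below moved libraries across both groups. Across the 6 libraries Afp had Pearson's r of 0.62 with that score (exact permutation p = 0.194, adjusted over 14 such relations 0.272) and Spearman's rho of 0.89 (exact permutation p = 0.0333, adjusted 0.117), and r was 0.54 without Control 3 and Control 5. TSDP 1 had the next highest hepatocyte score after TSDP 2. Afp remained far below albumin in all tumours. The log2 ratio of Afp to Alb counts was -4.25, -11.48 and -9.08 in Control 3, 4 and 5, against -10.86, -12.46 and -11.38 in TSDP 1, 2 and 5. Control 3 stood apart with the ratio nearest to 0, having few Alb counts and an Afp count near those of the other Control tumours. The means of -8.27 ± 3.68 and -11.57 ± 0.81 (SD, n = 3 each) had an exact two-sided permutation p of 0.3, where 0.1 is the smallest that 3 against 3 libraries allow. Without Control 3 the difference went from -3.30 to -1.29.

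Genes known to control Afp and H19 were measured beside them. Of 23 such regulators, all tested, 0 were called by edgeR, 2 were higher and 0 lower at an unadjusted p under 0.05, and their median log2 fold change was 0.09 (all tested genes, -0.02). Zhx2, which represses Afp and H19 in the liver after birth, was at 29.0 to 35.1 CPM in Control and 26.8 to 31.9 CPM in TSDP (log2 fold change -0.07, SE 0.13). Zbtb20, another repressor of Afp, was at 151 to 218 CPM in Control and 147 to 187 CPM in TSDP (log2 fold change -0.19, SE 0.18). The groups overlapped for both repressors. Cebpa, a transcription factor of mature hepatocytes, had the smallest p on the higher side: 21.6 to 49.3 CPM in Control and 56.7 to 114 CPM in TSDP, a log2 fold change of 1.40 with an adjusted p of 0.326 in edgeR's quasi-likelihood test and 0.0146 in DESeq2. Tead1, a partner of YAP, had the smallest p on the lower side at -0.47 (SE 0.21), and Trim28, a corepressor that guards imprints, was the most abundant of them at 147 to 242 CPM.

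Gpc3 encodes glypican 3, a proteoglycan anchored in the cell membrane that binds growth factors and Hedgehog ligands. It lies on the minus strand at chrX:52272426-52613950. It was counted at 22, 91 and 71 reads in Control 3, 4 and 5, against 98, 167 and 64 reads in TSDP 1, 2 and 5. The levels were 0.680, 2.79 and 1.76 CPM in Control, against 2.68, 4.83 and 1.79 CPM in TSDP. Control 3 was lowest and TSDP 2 highest, and the groups overlapped, since Control 4 was above TSDP 1 and TSDP 5. The means were 1.75 ± 1.06 and 3.10 ± 1.56 CPM (SD, n = 3 each), and the log2 fold change was 0.83 (SE 0.59, adjusted p = 0.556, edgeR). The estimate was 0.43 without Control 3 and 0.34 without TSDP 2.

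Gpc3 was high in the libraries with a high hepatocyte score and a high biliary score, the mean log2 CPM of epithelial and bile duct markers. With the hepatocyte score Pearson's r over the 6 libraries was 0.94 (exact permutation p = 0.00972) and Spearman's rho 0.83 (exact permutation p = 0.0583). Over the 14 relations computed, 7 members against the hepatocyte and the biliary score, the Benjamini-Hochberg adjusted values of this r and rho were 0.0681 and 0.163. With Control 3 and Control 5 left out, which lay farthest from the median score, r was 0.85. With the biliary score r was 0.89 (exact permutation p = 0.0361, adjusted 0.126) and rho 0.89 (exact permutation p = 0.0333, adjusted 0.117), and r was 0.99 without Control 3 and Control 4. Each group holds 3 libraries, and no correlation was computed within them. Because the hepatocyte score did not overlap between the groups, its relation with Gpc3 cannot be told apart from a difference between the groups. When the hepatocyte score was a covariate, the sign of the Gpc3 estimate turned, to -0.29 (SE 0.42).

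Among 18 glypicans, syndecans and heparan sulfate enzymes, 17 were tested, 0 were called by edgeR, and at an unadjusted p under 0.05 0 were higher and 2 lower. Gpc4, another glypican, had an estimate of 1.60 (SE 0.73), with its lowest level, 2.26 CPM, in Control 3 and its highest, 42.3 CPM, in TSDP 2, as for Gpc3. The Gpc4 estimate was 1.08 to 2.52 with 1 library left out, highest without Control 4, and 0.24 with the hepatocyte score as covariate. Hs2st1, a heparan sulfate sulfotransferase, was at 80.9 to 100.5 CPM in Control and 64.5 to 74.6 CPM in TSDP, a log2 fold change of -0.36 with an adjusted p of 0.345 in edgeR. Syndecan 4 (Sdc4), the most abundant of these genes, was at 353 to 470 CPM in Control and 466 to 664 CPM in TSDP.

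Mdk encodes midkine, a secreted heparin-binding growth factor of mid-gestation and of tumours. It lies on the minus strand at chr2:91929805-91932297. Its reads were 24, 61 and 37 in Control 3, 4 and 5, against 35, 100 and 18 in TSDP 1, 2 and 5. In CPM this gave 0.741, 1.87 and 0.920 for Control and 0.959, 2.89 and 0.502 for TSDP. The highest and the lowest library were both in the TSDP group, so the Control range lay inside the TSDP range. The means were 1.18 ± 0.607 and 1.45 ± 1.27 CPM (SD, n = 3 each), and the log2 fold change of 0.30 (SE 0.70, adjusted p = 0.869, edgeR) turned to -0.70 without TSDP 2.

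Of 14 partner and receptor genes of midkine 12 were tested, with 0 called, 0 higher and 2 lower at an unadjusted p under 0.05 in edgeR. Lrp1, a large endocytic receptor that binds midkine, was the most abundant and had the smallest p on the lower side. It was counted at 1714 to 2174 CPM in Control and 1109 to 1330 CPM in TSDP, without overlap. Its log2 fold change was -0.60 (SE 0.19), with an adjusted p of 0.334 in edgeR's quasi-likelihood test and 0.026 in DESeq2. Per kb of exon, Mdk stood at 0.992 FPKM and Lrp1 at 89.1 FPKM over the 6 libraries.

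Golm1 encodes a Golgi membrane protein, also called GP73, that is released into serum in liver disease. It lies on the minus strand at chr13:59634626-59675811. It was counted at 2057, 1545 and 2258 reads in Control 3, 4 and 5, against 2120, 1345 and 1940 reads in TSDP 1, 2 and 5. The levels were 63.5, 47.4 and 56.1 CPM in Control, against 58.1, 38.9 and 54.1 CPM in TSDP. Control 3 was highest and TSDP 2 lowest, the reverse of Gpc3, and the groups overlapped. The means were 55.7 ± 8.09 and 50.4 ± 10.1 CPM (SD, n = 3 each), and the log2 fold change was -0.15 (SE 0.19, adjusted p = 0.753, edgeR). Golm1 had the most reads of the members, and its estimate was 0.0026 without TSDP 2 and 0.13 with the hepatocyte score as a covariate. Of its exon length, 29.3% lies opposite Naa35, a gene with 8861 reads in all, and the strand setting of the counting is not given in the sources used here, and reads there cannot be told apart.

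H19 is an imprinted long non-coding RNA of the maternal copy that is abundant in fetal liver, and Igf2, the growth factor gene next to it, is expressed from the paternal copy. H19 lies on the minus strand at chr7:142575529-142578143 and Igf2 on the same strand at chr7:142650766-142666816. H19 is also the precursor of miR-675, whose mature RNAs (RefSeq, GRCm38.p6, minus strand at chr7:142577112-142577133 and chr7:142577078-142577099) are shown with their seeds, bases 2 to 8, in capitals. They lie inside the transcript that was counted and were not themselves measured here.
miR-675-5p: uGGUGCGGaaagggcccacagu
miR-675-3p: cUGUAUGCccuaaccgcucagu

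H19 was counted at 80, 99 and 53 reads in Control 3, 4 and 5, against 34, 90 and 30 reads in TSDP 1, 2 and 5. These were 2.47, 3.04 and 1.32 CPM in Control, against 0.931, 2.60 and 0.837 CPM in TSDP. TSDP 1 and TSDP 5 were below all Control libraries, while TSDP 2 was above Control 3 and Control 5. The means were 2.27 ± 0.876 and 1.46 ± 0.992 CPM (SD, n = 3 each), and the log2 fold change was -0.64 (SE 0.55, adjusted p = 0.622, edgeR), which was -1.37 without TSDP 2.

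Igf2 had 1 read in Control 4, 1 in TSDP 2 and 0 in the other libraries, so no library reached the floor of 3 counts (0.0746 to 0.0927 CPM) and no fold is given. Of the Igf2 exon length, 64.5% is shared with other annotated genes, mostly with Gm49394, a transcript on the same strand that had 1 read in all. Reads that fall in both may be assigned to neither, and how the counting treated them is not given in the sources used here. Set against the unshared length alone, the contrast with H19 was still wide. All 386 H19 reads over 2235 bases gave 173 per kb, and the 2 Igf2 reads over 2029 bases gave 0.986 per kb. Where in the exons the reads fell is not known. The log2 ratio of H19 to Igf2 with 0.5 added to each count was 6.71 ± 0.64 in Control, against 5.98 ± 0.11 in TSDP (SD over 3 libraries, exact two-sided permutation p = 0.2), and it rests largely on the added count.

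Dlk1 encodes a transmembrane protein of the Notch ligand family that marks fetal hepatoblasts, and it lies on the plus strand at chr12:109452823-109463336 in a second imprinted region, with the non-coding RNAs Meg3 and Rian on the maternal copy. Its promoter run held the FOXA letters at 2 places, but the gene had 0, 2 and 1 reads in Control 3, 4 and 5, against 0, 1 and 0 in TSDP 1, 2 and 5. All were under the floor of 3 counts. Meg3 and Rian were counted, at 2348 and 2052 reads over all libraries. Divided by the length of unshared exon, these whole-gene counts gave 142 and 117 reads per kb, against 0.707 for Dlk1. The other genes of the region did not divide by parental copy. Mirg, another maternally expressed non-coding RNA, had 83 reads (12.0 per kb), while the paternally expressed protein-coding genes Rtl1 and Dio3 had 24 (4.12 per kb) and 143 (70.4 per kb). These 3 genes were singled out after their values were seen.

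**Figure D2:**
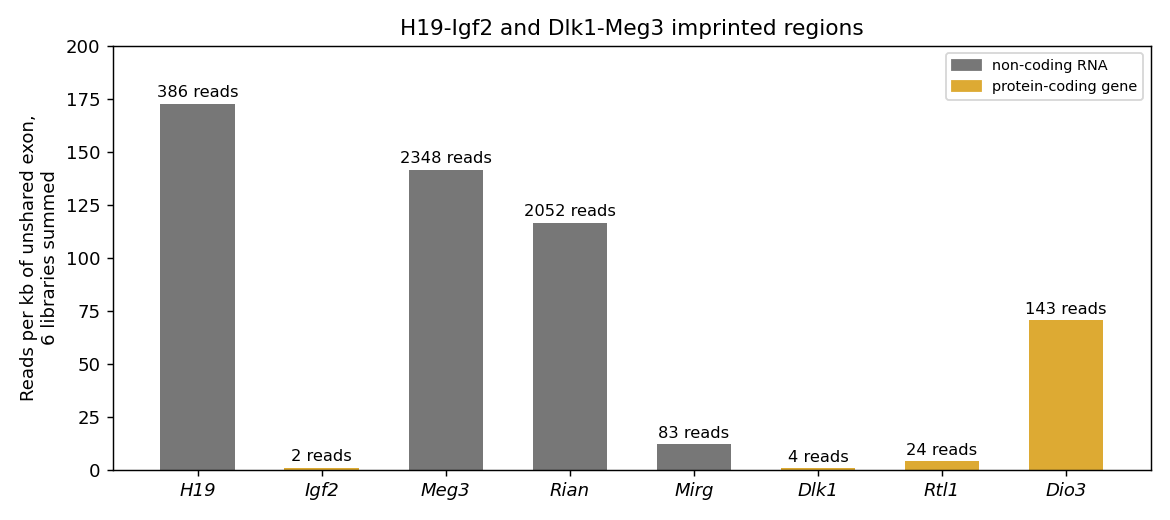
All reads of each gene (6 libraries summed) divided by the kb of its exon not shared with another gene. Genes of the H19-Igf2 and Dlk1-Meg3 regions are shown, with the number of reads over each bar. H19, Meg3 and Rian stand at 117 to 173 reads per kb and Igf2 and Dlk1 at 0.986 and 0.707, while the non-coding Mirg is low at 12.0 and the protein-coding Dio3 stands at 70.4.

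Meg3 was highest in Control 3 at 19.7 CPM and lowest in TSDP 5 at 2.54 CPM, and the groups overlapped, as they did for H19 (log2 fold change of Meg3 -0.80, SE 0.64). That estimate was -0.38 without TSDP 5, -0.52 without Control 3 and -1.61 without TSDP 2. Of 27 other imprinted genes 21 were tested and 0 called by edgeR. At an unadjusted p under 0.05, 3 were higher and 1 lower. Mest, a paternally expressed gene, was at 12.0 to 14.4 CPM in Control and 16.3 to 18.5 CPM in TSDP, a log2 fold change of 0.38 with an adjusted p of 0.349 in edgeR. Airn, the non-coding RNA that silences Igf2r in cis, was at 6.54 to 11.6 CPM in Control and 4.52 to 4.77 CPM in TSDP, a log2 fold change of -0.90 with an adjusted p of 0.326 in edgeR and 0.0416 in DESeq2.

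With Igf2 near 0, the rest of the insulin-like growth factor system was examined. Of 19 genes 17 were tested and 0 called by edgeR, with 2 higher and 1 lower at an unadjusted p under 0.05. Igf1, the postnatal ligand that hepatocytes make, was counted at 25.2, 145.5 and 54.2 CPM in Control 3, 4 and 5, against 239, 447 and 149 CPM in TSDP 1, 2 and 5, a log2 fold change of 1.89 (SE 0.71, adjusted p = 0.36, edgeR). Igfals, the liver-made carrier subunit, had an estimate of 2.74 (SE 0.97) and Igfbp4, the most abundant gene of the system, 1.22 (SE 0.64). Igf1 and Igfals were highest in TSDP 2 and lowest in Control 3, as the hepatocyte markers were. With the hepatocyte score as covariate the estimates were 0.66 for Igf1, 0.91 for Igfals and 0.067 for Igfbp4. The receptor Igf1r was at 155 to 226 CPM in Control and 89.3 to 150.1 CPM in TSDP, without overlap (log2 fold change -0.69, SE 0.23, adjusted p = 0.334, edgeR). Igf2r, the scavenger receptor for IGF2, was at 216 to 396 CPM in Control and 159 to 223 CPM in TSDP, and the groups overlapped. The same covariate took the Igf1r estimate to -0.33 and that of Igf2r from -0.61 to -0.03, and without Control 3 that of Igf2r was -0.31.

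Lin28b encodes an RNA-binding protein that blocks the maturation of let-7 microRNAs, and Igf2bp3 is among the transcripts that let-7 holds down. The let-7 family is shown for its shared seed, bases 2 to 8 in capitals (RefSeq, GRCm38.p6), through which the members recognise the same sites. The mature microRNAs were not measured here.
let-7a-5p: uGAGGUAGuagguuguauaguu
let-7g-5p: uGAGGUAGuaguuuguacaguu
miR-98-5p: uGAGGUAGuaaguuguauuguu

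Lin28b, on the minus strand at chr10:45376620-45486395, had 0, 0 and 2 reads in Control 3, 4 and 5, against 1, 1 and 3 reads in TSDP 1, 2 and 5. Only TSDP 5 reached the floor of 3 counts, and no fold is given. Its relative Lin28a had 4 reads in all libraries together. Both LIN28 genes were thus at the limit of detection at this depth.

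Igf2bp3, on the minus strand at chr6:49085223-49214957, was counted at 41, 66 and 73 reads in Control 3, 4 and 5, against 76, 72 and 48 reads in TSDP 1, 2 and 5. The levels were 1.27, 2.02 and 1.81 CPM in Control, against 2.08, 2.08 and 1.34 CPM in TSDP. Each group held 1 low library, Control 3 and TSDP 5, and the ranges overlapped. The means were 1.70 ± 0.391 and 1.83 ± 0.428 CPM (SD, n = 3 each), and the log2 fold change was 0.11 (SE 0.31, adjusted p = 0.895, edgeR). Of the exon length 18.7% lies opposite Malsu1, a gene with 1514 reads in all, so some reads cannot be told apart.

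The paralogs differed far more in level than the groups did. Igf2bp2, the member of the family that stays on after birth, stood at a mean of 14.3 FPKM over the libraries, against 0.217 FPKM for Igf2bp3 and 0.0065 FPKM for Igf2bp1, which had 13 reads in all. Igf2bp2 was at 101 to 155 CPM in Control and 53.8 to 119.4 CPM in TSDP, with overlap. Hmga2, a chromatin protein of the embryo and a known let-7 target, was the most abundant gene of the LIN28 and let-7 list at 1253 to 2353 CPM in Control and 628 to 1759 CPM in TSDP (log2 fold change -0.39, SE 0.44). Its estimate was -0.06 without TSDP 2, -0.13 without Control 3 and -0.65 without TSDP 5, and 0.26 with the hepatocyte score as covariate. Of the 18 genes on that list 15 were tested and 0 called by edgeR, with 1 higher and 0 lower at an unadjusted p under 0.05. The 1 was Mycn, at 0.247 to 0.820 CPM in Control and 1.20 to 3.96 CPM in TSDP, a log2 fold change of 2.13 with an adjusted p of 0.326 in edgeR and 0.0212 in DESeq2. Dgcr8, a subunit of the microRNA processor, had the smallest p on the lower side at -0.32 (SE 0.18).

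**Figure D3:**
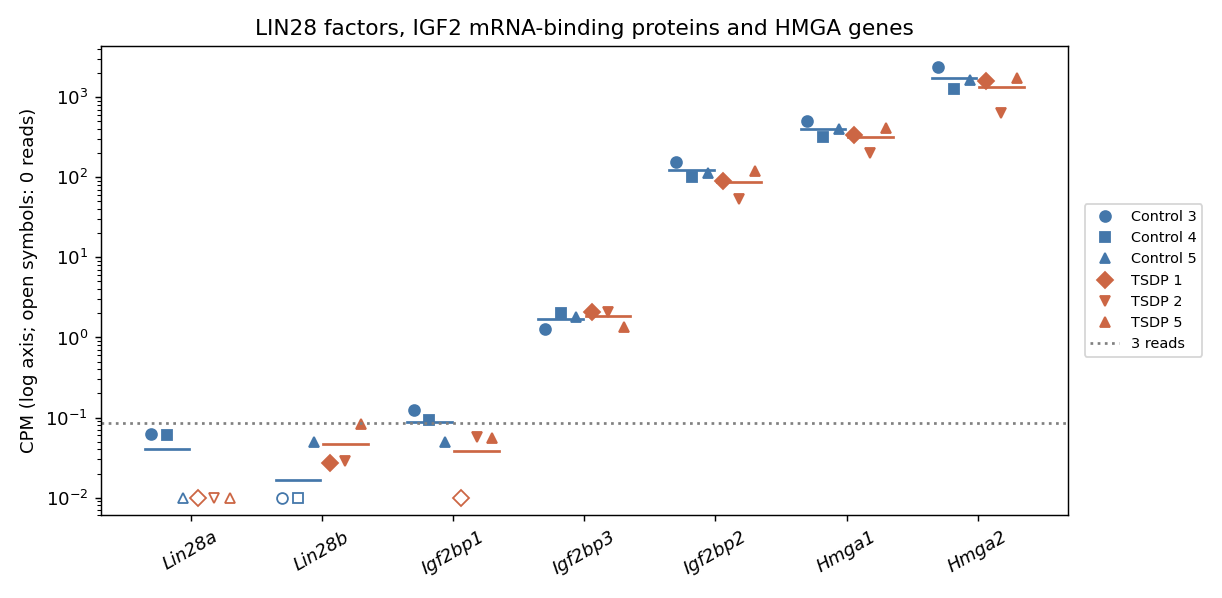
CPM (log axis) of the LIN28 factors, the IGF2 mRNA-binding proteins and the HMGA genes in each Control (blue) and TSDP (red) library, with lines at the group means, open symbols for 0 reads and a dotted line at the level of 3 reads. Lin28a, Lin28b and Igf2bp1 lie around or under the line, Igf2bp3 at 1.27 to 2.08 CPM, and Hmga2 at 628 to 2353 CPM, with Control and TSDP overlapping for Igf2bp3, Igf2bp2 and Hmga2.

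Epcam, on the plus strand at chr17:87635979-87651129, was the member that varied most. It was counted at 14, 440 and 133 reads in Control 3, 4 and 5, against 316, 274 and 157 reads in TSDP 1, 2 and 5. In CPM the Control tumours stood at 0.432, 13.5 and 3.31 and the TSDP tumours at 8.65, 7.92 and 4.38. The lowest and the highest library were both Control tumours and differed 31.2-fold, and the TSDP range lay inside the Control range. The means were 5.74 ± 6.86 and 6.98 ± 2.28 CPM (SD, n = 3 each). The log2 fold change of 0.28 had a 95% interval from -2.16 to 2.72 and an adjusted p of 0.917 in edgeR's quasi-likelihood test. It was -0.28 without Control 3, -0.04 without Control 5 and 1.89 without Control 4. With all libraries, limma-voom gave a log2 fold change of 1.29 (adjusted p = 0.583, limma-voom). When the hepatocyte score was a covariate, the estimate was -1.38 (SE 0.34), at an unadjusted p of 0.00541 and an adjusted p of 0.623 in edgeR.

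Across the 6 libraries Epcam had Pearson's r of 0.93 with the hepatocyte score (exact permutation p = 0.025, adjusted 0.117) and 0.94 with the biliary score (exact permutation p = 0.00556, adjusted 0.0681). Spearman's rho was 0.60 with the hepatocyte score (exact permutation p = 0.242, adjusted 0.308) and 0.89 with the biliary score (exact permutation p = 0.0333, adjusted 0.117). Without the 2 libraries farthest from the median score, r was -0.01 and 0.70, so the relation with the hepatocyte score rests on Control 3 and Control 5. The biliary score was lowest in Control 3 and highest in Control 4, the same libraries that held the lowest and highest Epcam.

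Of the 24 epithelial and bile duct genes 23 were tested and 0 called by edgeR, with 2 higher and 0 lower at an unadjusted p under 0.05 and a median log2 fold change of -0.06. Cdh1, the epithelial cadherin, was at 28.1 to 43.1 CPM in Control and 61.6 to 92.0 CPM in TSDP, a log2 fold change of 0.94 with an adjusted p of 0.326 in edgeR and 0.015 in DESeq2. The keratins Krt8 and Krt19 were counted in every library, Krt8 at 431 to 647 CPM and Krt19 at 26.7 to 95.3 CPM. Krt19 is also on the mesothelial list, and which cells made the keratins was not measured. The log2 fold change of Krt8 was 0.0017 (SE 0.19), and its sign turned under all 3 other scalings. That of Krt19 was -0.40 (SE 0.42). Tspan8 had the smallest p on the lower side at -0.22 (SE 0.17). Control 3, lowest in Epcam, was also the lowest library for Krt8, at 431 CPM, and stood at 49.0 CPM for Krt19.

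**Figure D4:**
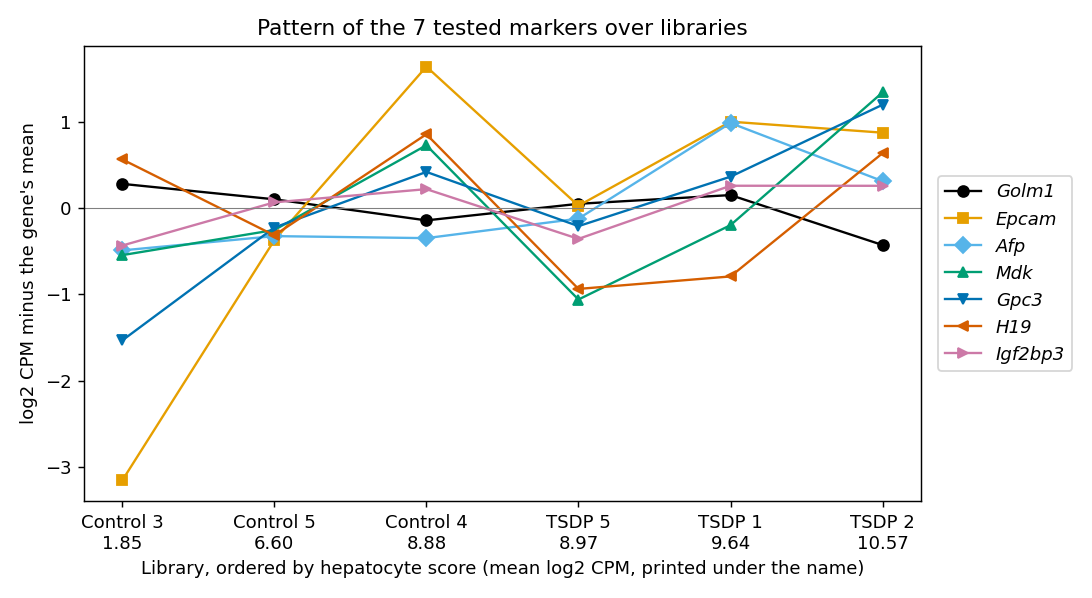
Log2 CPM minus the gene's own mean for the 7 tested markers in each library, the libraries ordered by hepatocyte score, which is printed under each name. Epcam and Gpc3 are lowest in Control 3, Golm1 is highest there, Mdk and Gpc3 are highest in TSDP 2, and Afp is highest in TSDP 1.

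The 7 tested markers did not share 1 pattern over the libraries. Likeness was measured as the root mean square difference of log2 CPM (prior count 2) after each gene was centred on its own mean over the 6 libraries. Among the pairs of members the smallest difference was between Afp and Igf2bp3, 0.42, and the largest between H19 and Epcam, 1.76. Gpc3 and Mdk, both highest in TSDP 2, differed by 0.60, as H19 and Mdk did at 0.59. A small value can also come from a gene that varies little, as for Golm1 and Igf2bp3 (0.46), whose centred values had opposite signs in 4 of the 6 libraries.

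Out of 14267 other tested genes with a named symbol, those nearest to each member were closer than any member pair. Nearest to Afp were Ear2 (0.17), Phex (0.19) and Ethe1 (0.19), and nearest to Gpc3 were Rgs16 (0.09), Sox12 (0.10) and Pkdcc (0.14). Nearest to H19 were Pmp22 (0.10), Ncam1 (0.15) and Arhgap28 (0.16). For Mdk they were Greb1l (0.14), Sgpp2 (0.19) and Ndst4 (0.20), and for Igf2bp3 Tgfb1i1 (0.09), B3galt4 (0.09) and Mpg (0.10). Golm1 had Rbbp4, Alyref and Trp53, each at 0.03, and Epcam, the most variable, had Ntf3 and Fermt1 at 0.37 and Anxa13 at 0.38. With 6 libraries and this many candidates, close matches are a description of these libraries.

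**Figure D5:**
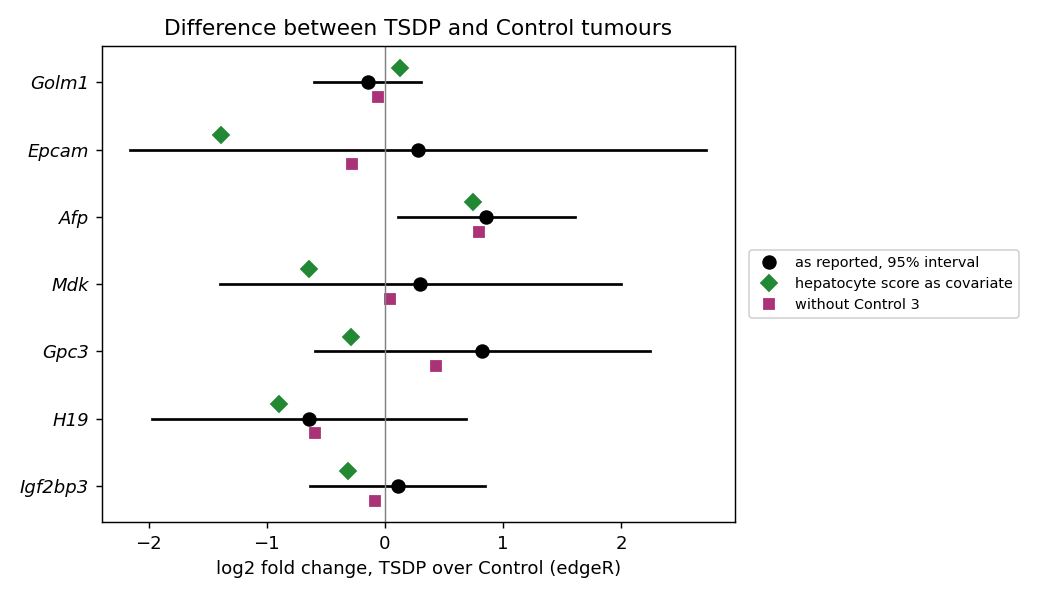
Log2 fold change, TSDP over Control, of the 7 tested markers by edgeR (black, with 95% intervals), with the hepatocyte score as a covariate (green) and without Control 3 (purple). The Afp interval, 0.11 to 1.61, is the one that lies on 1 side of 0 before adjustment, and Gpc3, Mdk, Golm1, Igf2bp3 and Epcam change sign with the covariate.

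As a set, 5 of the 7 tested members had a positive estimate and 2, H19 and Golm1, a negative one, with a median of 0.28 against -0.02 over all tested genes, of which 8244 had a positive and 9179 a negative estimate. With the hepatocyte score in the fit, Afp alone kept a positive estimate among those 5. The 10 markers together took 0.00729% ± 0.000220 of counts in Control, against 0.00700% ± 0.00109 in TSDP (SD over 3 libraries), and most of this was Golm1. Without Golm1 the shares were 0.00165% ± 0.000965 and 0.00207% ± 0.000671, so the order of the means turned, within the spread of the libraries in both cases.

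Other genes that mark fetal liver or liver cancer tissue were counted for comparison with the members. Of 25, 21 were tested and 0 called by edgeR, with 5 higher and 2 lower at an unadjusted p under 0.05 and a median log2 fold change of -0.13. Hspa1a, a heat shock protein, and Glul, glutamine synthetase, belong to tissue panels used together with glypican 3. Hspa1a was at 3.71 to 6.39 CPM in Control and 9.88 to 17.1 CPM in TSDP, a log2 fold change of 1.47 with an adjusted p of 0.326 in edgeR and 0.000711 in DESeq2. Hspa1b, another heat shock protein gene of this list, had more reads in all (8315 against 2058), and its groups overlapped. Its log2 fold change was 0.38, with an adjusted p of 0.756 in edgeR and 0.786 in DESeq2. Hspa1b was singled out after its values were seen. Glul, at 86.8 to 180.3 CPM in Control and 211 to 536 CPM in TSDP, had 1.58 with an adjusted p of 0.326 in edgeR and 0.00579 in DESeq2, and it was highest in TSDP 2 and lowest in Control 3, as the hepatocyte markers were. Plag1, a fetal zinc-finger factor that can switch on Igf2, was at 16.5 to 24.9 CPM in Control and 5.95 to 14.4 CPM in TSDP, without overlap (log2 fold change -0.95, SE 0.35, adjusted p = 0.356, edgeR). Spp1, osteopontin, was the most abundant gene of this list at 1978 to 8704 CPM, with overlapping groups. The Notch list, examined because Dlk1 belongs to that ligand family, had 14 of 15 genes tested, 0 called, and 0 higher and 2 lower at an unadjusted p under 0.05 in edgeR. Notch2, its most abundant gene, was at 214 to 266 CPM in Control and 161 to 199 CPM in TSDP (log2 fold change -0.38, SE 0.15), and Heyl, a Notch target, had the smallest p on the higher side at 0.92 (SE 0.44).

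The summed levels of other cell type markers and of proliferation genes also differed between libraries. Whether this RNA came from tumour or host cells was not measured. The summed level of 16 stromal markers was 3673 to 7130 CPM in Control and 4990 to 9239 CPM in TSDP, that of 10 mesothelial markers 203 to 367 and 104 to 285 CPM, and that of 12 endothelial markers 234 to 324 and 354 to 654 CPM. TSDP 2, highest in Gpc3 and Mdk, was also highest in the stromal, endothelial and macrophage sums. The 12 macrophage markers summed to 1453 to 2377 CPM in Control and 2111 to 2952 CPM in TSDP, 11 T cell markers to 77.7 to 126.0 and 136.3 to 159.0 CPM, and 9 B and plasma cell markers to 6.43 to 37.8 and 97.9 to 384.0 CPM. The 8 erythroid markers summed to 650 CPM in Control 3 and to 15.2 to 52.6 CPM elsewhere, and the 12 proliferation genes to 1261 to 2354 CPM in Control and 1121 to 1780 CPM in TSDP. No marker of these lists was at 0 in all libraries, and the part of these cells in the levels of the members was not tested.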

How the data were processed

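RNA of 6 HCA-1 tumour samples was made into KAPA mRNA libraries, per the labels' protocols. Trimmomatic 0.38, HISAT2 2.1.0, featureCounts 2.0.0, CASAVA, FastQC and MultiQC are named in the submitters' processing notes. The authors deposited raw read counts for 55536 genes and a normalized signal table, whose values equal the count divided by 1 constant per library and which supplied the gene symbols. The identifiers are exactly the 55536 of GENCODE M21 (GRCm38), so its coordinates and exon lengths were used, although the sources used here give neither build nor strand setting. Total counts were 32130808 to 38953397 per library. Each library is called a tumour in this report, but nothing says that replicates are more than separate samples. The p-values thus measure only the spread between these samples, which may be technical.

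Groups came from the sample titles. Genes were tested with edgeR 4.0.16 in R 4.3.3 (TMM scaling, filterByExpr with a minimum count of 10, glmQLFit and glmQLFTest, group as the only term) and p-values adjusted by Benjamini-Hochberg over 17423 genes (threshold 0.05). The steps were tested on simulated data. Of 150 genes at each size, 18 (12%) were called at 2-fold, 129 (86%) at 4-fold and 144 (96%) at 8-fold. The changed genes were drawn only from genes with a higher mean CPM than Afp, Gpc3, H19, Mdk and Igf2bp3 had. These shares thus do not cover those 5 members. The largest member estimate was 1.81-fold (Afp). The lack of a call for a member thus does not show equal levels in the groups. DESeq2 1.42.0, limma 3.58.1 (voom), other scalings and filters, a covariate (the hepatocyte score) and each library left out in turn were alternatives. For 15576 genes with a count DESeq2 returned no adjusted p.

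The members, the 18 other gene lists and the naming rule were chosen with earlier results of these data known. The rule named all members, from each list the tested gene with the smallest p in each direction and the most abundant one, 10 preset genes, and the 3 nearest genes by pattern. Cell type lists are given as sums, and the hepatocyte and bile duct lists also with their counts and median, without the further genes the rule takes from the other cell type lists. Promoters and microRNAs are from RefSeq on GRCm38.p6. The promoters of H19 and Mdk were not analysed here.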

Additional observations from a re-analysis of the deposited data

How the results depend on the processing

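No paired analysis was possible because the groups share only the replicate number 5. edgeR called 0 genes with each library left out. It also called 0 with the other scalings, the stricter filter (1 CPM in 3 libraries), bias-adjusted quasi-likelihood and the covariate. edgeR called 1 without a filter on low counts, limma-voom called 0 genes, and DESeq2 called 626 (550 higher, 76 lower). The cause was not tested. No setting called a member. Of 62 member estimates under other settings 57 kept their sign, and 36 of 42 with a library left out. When the hepatocyte score was a covariate, the log2 fold changes turned to -0.29 (Gpc3), -0.65 (Mdk), 0.13 (Golm1), -0.31 (Igf2bp3), -1.38 (Epcam), -0.043 (Alb), 0.043 (Dgcr8), 0.26 (Hmga2), 0.068 (Spp1) and -0.23 (Krt8). Alb is itself among the hepatocyte markers that make up the score, so its value with this covariate is no independent check. The score did not overlap between the groups, so the covariate and the treatment cannot be told apart in these fits. Of the 33 named genes that are no members, 24 kept their sign but lost more than 1.5 times in size with this covariate, among them Cebpa (1.40 to 0.76), Mycn (2.13 to 1.16), Airn (-0.90 to -0.49), Glul (1.58 to 0.95), Cdh1 (0.94 to 0.53), Lrp1 (-0.60 to -0.38) and Igf2bp2 (-0.48 to -0.016). The Krt8 estimate, 0.0017, was -0.0064 with RLE scaling, -0.070 with upper-quartile scaling, -0.067 with no scaling factors, -0.017 without a filter, -0.0074 with the stricter filter and -0.0048 in DESeq2. With a library left out, ranges that cross 0 were -0.70 to 0.79 (Mdk), -0.26 to 0.0026 (Golm1), -0.081 to 0.29 (Igf2bp3), -0.28 to 1.89 (Epcam), -0.13 to 0.00089 (Zhx2), -0.63 to 0.26 (Spp1), -0.17 to 0.11 (Krt8) and -0.65 to 0.055 (Krt19). The difference in summed share of counts, -0.000286 percentage points, was 0.000424 without Golm1, and -0.000901 to 0.000141 with a library left out, the highest without TSDP 2. Igf2, Dlk1 and Lin28b, at 3 reads or fewer in each library, are limited by depth.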

Other observations

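Spink1, a trypsin inhibitor that the pancreas and some liver cancers secrete, is a further marker of liver cancer tissue that was read from nearly 1 library. It had 21.5 CPM in Control 4 and 0 to 0.0558 CPM in the other 5, with 706 reads in all, and it did not pass the filter on low counts. Control 4 was also highest in 4 epithelial genes: Prom1 at 5.70 CPM, Cldn4 at 5.03 CPM, Muc1 at 7.97 CPM and Esrp1 at 2.70 CPM. In the other libraries these stood at 0.0927 to 1.96, 0 to 1.33, 0.556 to 2.20 and 0.0309 to 0.780 CPM. These 5 genes were chosen after their values were seen, and Epcam, at 13.5 CPM, was highest in the same tumour.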
